A study of Rattus norvegicus with 18 samples.

Results

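Gene expression in the ventral tegmental area (VTA) of 6 rats on chronic ethanol was compared with that of 6 rats on a control diet, across gene families and pathways. The 12 libraries were taken by their titles, rats 1 to 6 for the control diet and rats 7 to 12 for chronic ethanol, out of 18 in the study. All rats were adult male Sprague-Dawley animals of the WT genotype, and each library came from 1 rat with its own animal number. Both groups were fed Lieber-DeCarli diet, a complete liquid food. In the chronic ethanol group it held 9% v/v ethanol for 15 or 16 days, and the rats were taken at 0 h of withdrawal. The other 6 rats, taken after 24 h of withdrawal, entered only the filter on low counts, the scaling of the libraries and the estimate of the spread.

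The VTA is the midbrain region whose dopamine neurons project to the nucleus accumbens and the prefrontal cortex, and it also holds GABA and glutamate neurons, astrocytes, oligodendrocytes, microglia and vessels. Ethanol raises the firing of its dopamine neurons and acts on GABA-A, glycine and NMDA receptors and on several potassium channels. Ethanol is broken down to acetaldehyde and acetate by alcohol dehydrogenases, catalase and aldehyde dehydrogenases, mostly in the liver. A bulk library averages all cells of a dissection, so fewer cells of a type and less RNA per cell cannot be told apart in any of the values below.

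The 12 libraries held 29.9 to 45.1 M fragments counted on genes, with a median of 36.8 M in the control group and 41.0 M in the ethanol group. Levels are given as CPM, the count scaled to library size. The floor of 3 counts was 0.0665 to 0.1 CPM, a limit for counting error only. Th, the enzyme that limits dopamine synthesis, was present in every rat, at 233 to 763 CPM in the control group (median 499) and 69.0 to 730 CPM in the ethanol group (median 492). Single rats stood apart in transcripts of neighbouring tissue, and the values are given here as the difference of a list's mean log2 CPM from the control mean. Control rat 3 lay at 2.11 for meningeal fibroblast genes and 1.52 for pericyte and smooth muscle genes. Control rat 5 and ethanol rat 8 lay at 4.62 and 4.38 for Hox genes, which mark the hindbrain, and at -0.69 and -1.51 for dopamine neuron genes. Ethanol rat 7 lay at 1.46 for hypothalamic and thalamic genes. Ethanol rat 11 lay at 1.74 for immediate early genes. Rats 1 to 8 shared the first index of their libraries and rats 9 to 12 had another, so with the index as a term the comparison rested on ethanol rats 7 and 8. The plot of family levels by rat shows these animals beside the rest.

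**Figure D1:**
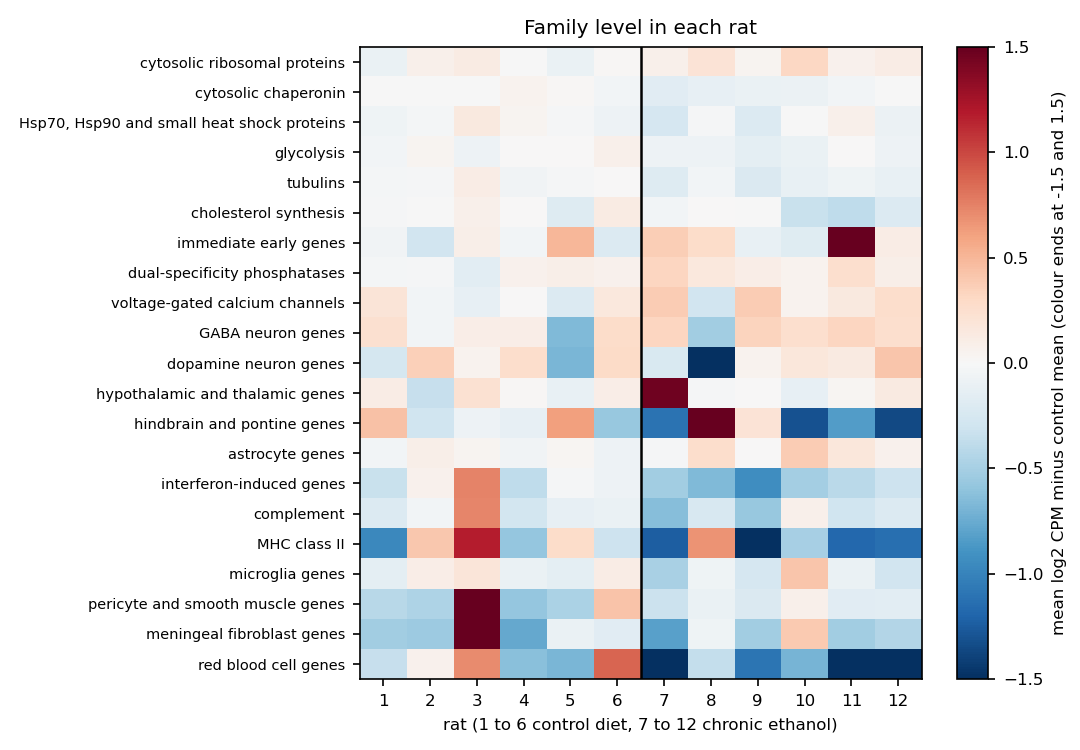
Mean log2 CPM of 21 gene families (rows) in each of 12 rats (columns), as the difference from the control mean; the line parts control rats 1 to 6 from chronic ethanol rats 7 to 12, and the colour ends at -1.5 and 1.5. Control rat 3 was high for meningeal, smooth muscle, interferon and complement genes, ethanol rat 11 for immediate early genes, and ethanol rat 8 low for dopamine neuron genes, while the ribosomal, chaperonin, glycolysis and tubulin families spanned less than 0.5.

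Differences between the groups were small for nearly all genes. Of 17637 genes tested, 0 (0%) passed an adjusted p of 0.05 by edgeR's quasi-likelihood test, and 46 of 17109 (0.269%) passed by DESeq2. The lowest adjusted p by edgeR was 0.0824, for Capn6. At an unadjusted p under 0.05 stood 1030 genes (5.84%), of which 547 lay higher (3.1%) and 483 lower (2.74%) in the ethanol rats. All 6 ethanol rats lay outside the range of the 6 control rats in 164 genes (0.93%), above it in 92 (0.522%) and below it in 72 (0.408%). The median log2 difference over all genes was -0.0039, its quartiles were -0.09 and 0.09, and 48.7% of genes lay higher. These shares are the background against which each family is read, and no family is tested. Since no gene passed by edgeR, families and genes below are described as lying higher or lower.

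The number of genes under an unadjusted p of 0.05 depended on the withdrawal rats that share the estimate of the spread. Withdrawal rat 13 stood far from the other withdrawal rats. Chi-square divided by its degrees of freedom measures how far a pair of libraries differs. It was 340 to 386 in pairs with rat 13 and 12.5 to 43.0 in the other withdrawal pairs. The main fit, its shared spread and the 5.84% of all genes include that rat. Without withdrawal rat 13 the number was 961 higher and 945 lower, and 4 genes then passed the adjusted threshold: Kif5a, Cryzl1, LOC108352949 and Capn6. On the 12 libraries alone the number was 798 higher and 865 lower. Without control rats 3 and 5 and ethanol rats 7 and 8 it was 281 higher and 233 lower. Whether the rats' own values overlapped is therefore given beside each test.

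**Figure D2:**
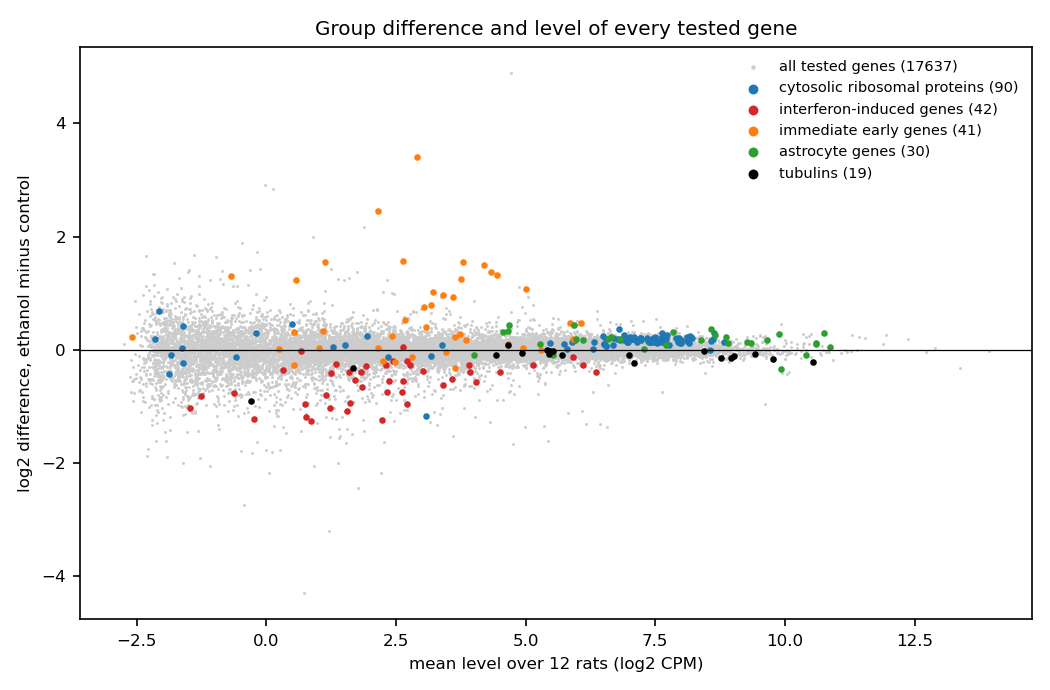
Log2 difference of chronic ethanol minus control (vertical axis) against mean level over the 12 rats in log2 CPM (horizontal axis, log scale) for 17637 genes in grey, with 5 families in colour. Ribosomal protein genes form a narrow band just above 0 at high level, tubulins lie just under 0, and immediate early and interferon-induced genes spread up and down to several units.

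Direction differed with transcript length and level. Genes were put in 10 equal bins by exon length and by mean CPM. Among the shortest genes (59 to 1086 bases) 101 lay higher and 38 lower at an unadjusted p under 0.05, with a median log2 difference of 0.03. In the longest bin 21 lay higher and 42 lower, with a median of -0.01. In the bin with the highest CPM 103 lay higher and 36 lower, and in the lowest bin 39 lay higher and 68 lower. Taking the ribosomal protein family out of the shortest bin left 60 higher and 39 lower among 1692 genes, with a median of 0.03, and out of the bin with the highest CPM 68 higher and 36 lower among 1715. By position, the share under an unadjusted p of 0.05 ran from 4.20% on chromosome 6 to 8.40% on chromosome 16 among chromosomes 1 to 20. Long noncoding RNAs were split evenly, with 27 higher and 27 lower of 785.

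**Figure D3:**
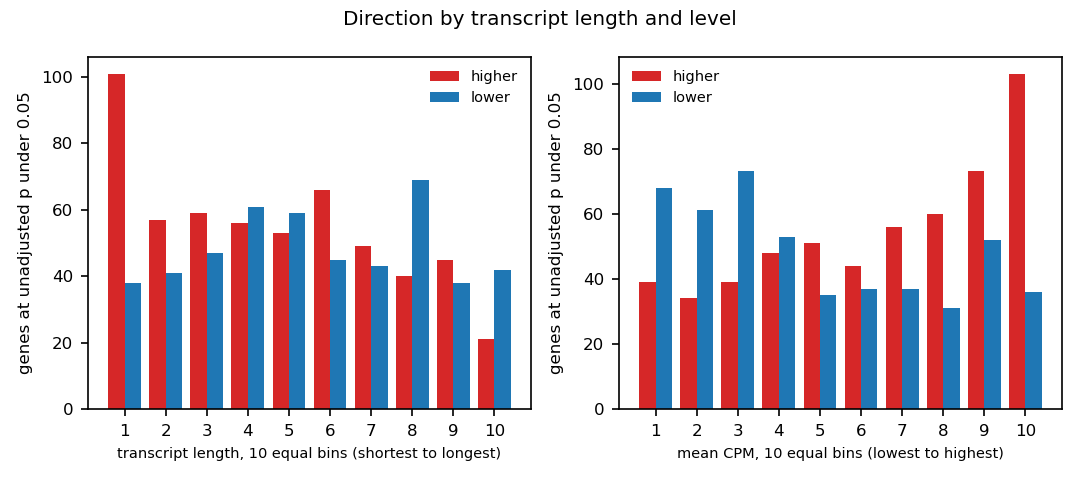
Number of genes at an unadjusted p under 0.05 (vertical axis) that lay higher (red) or lower (blue) in the ethanol rats, in 10 equal bins of transcript length (left) and of mean CPM (right). Higher genes outnumber lower ones 101 to 38 in the shortest bin and 103 to 36 in the bin with the highest CPM.

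Most families had a median close to 0. Of the families and pathways set by name pattern or list, 125 had at least 4 tested members, and 3823 tested genes belonged to at least 1 family. The median log2 difference of the members lay within 0.1 of 0 in 100 of the 125 families, above 0.1 in 12 and below -0.1 in 13. It lay within 0.05 of 0 in 70. The bound of 0.1 also takes in families whose members leaned to 1 side. Examples are the cytosolic chaperonin (0 of 8 higher, median -0.093) and tubulins (1 of 19, median -0.097). In 29 families no member stood at an unadjusted p under 0.05, and in 36 at least 10% did, against 5.84% of all genes. By the mean of its members in each rat, no family had all 6 ethanol rats on 1 side of every control rat. In 1 family 5 of 6 ethanol rats lay above all controls, the dual-specificity phosphatases. In 6 families 5 of 6 lay below: the cytosolic chaperonin, glycolysis, fatty acid synthesis, tubulins, interferon-induced genes and red blood cell genes. At an unadjusted p under 0.05 stood 189 higher and 137 lower of the 3823 genes in a family, and 358 higher and 346 lower of the 13814 outside every family.

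**Figure D4:**
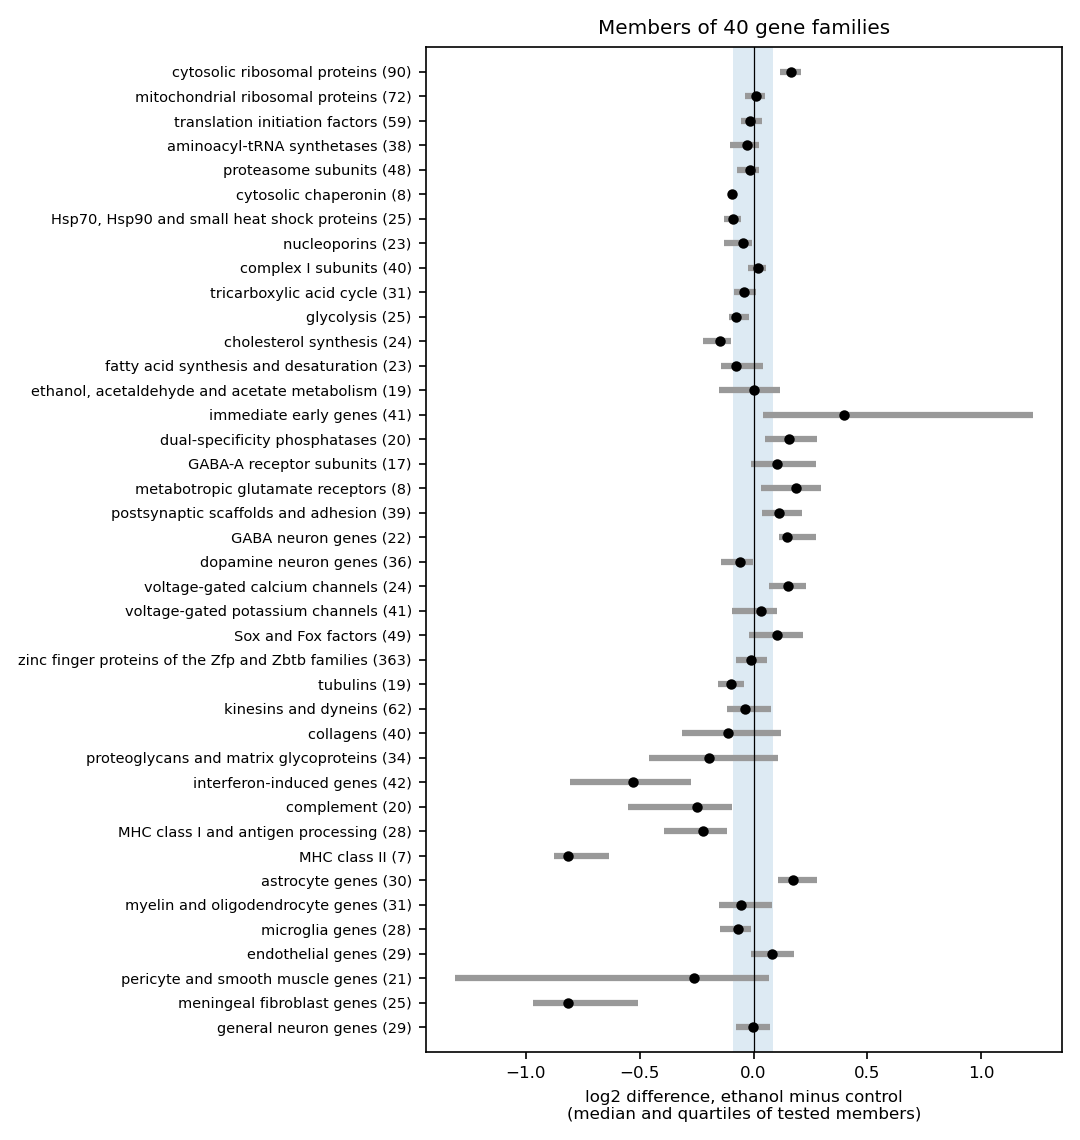
Median (point) and quartiles (bar) of the log2 difference, chronic ethanol minus control, over the tested members (number in brackets) of 40 gene families; the band gives the quartiles over all 17637 genes, -0.09 and 0.09. The widest bars belong to the immune, vascular and immediate early families, while most families of cell machinery lie inside the band and the ribosomal proteins just above it.

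Genes of the cytosolic ribosome lay higher as a block by a small amount. The ribosome of the cytosol is built from a large and a small subunit, each with a fixed set of proteins that are made in equal numbers. Of the genes of its proteins, 71 were tested and all 71 lay higher, with a median log2 difference of 0.17 and 45 at an unadjusted p under 0.05. The large subunit gave 40 of 40 higher with a median of 0.16, and the small subunit 29 of 29 with a median of 0.20. In 8 of the 71, all ethanol rats lay above all controls, against 0.522% of all genes. A further 19 tested genes of the name pattern are copies, pseudogenes or paralogues, and these lay on both sides, 12 of 19 higher with a median of 0.03. This division of the family was made after the values were seen.

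Rpsa, the small subunit protein that also serves as a laminin receptor (chromosome 8, 128806053 to 128809987, Rnor_6.0), had 333 to 371 CPM in the control rats (median 359) and 412 to 505 CPM in the ethanol rats (median 423). The groups did not overlap, and the difference was 0.30 ± 0.06 in log2 (SE; edgeR, adjusted p = 0.161). The highest ethanol rat was rat 10, and DESeq2 gave an adjusted p of 0.000326. Rps27a, which is made fused to ubiquitin, went from 225 to 237 CPM (median 229) in control to 254 to 287 CPM (median 265) in ethanol rats, again without overlap.

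By the mean of all 90 tested genes of the name pattern, the groups overlapped, with 2 of 6 ethanol rats above every control. That family mean was 0.14 higher in the ethanol group, with an SD among rats of 0.09 in control and 0.10 in ethanol rats. The family mean lay between -0.10 and 0.12 in the control rats and between 0.04 and 0.31 in the ethanol rats, with ethanol rats 10 and 8 highest. Without ethanol rat 10 the median over the 71 genes was 0.12, and 18 stood at an unadjusted p under 0.05. With the library index as a term 67 of 71 lay higher, and 17 stood under that p. The 71 genes had a median exon length of 615 bases, inside the shortest bin of genes, which leaned upward as well. The part of transcript length in the shift was not tested.

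Other parts of protein synthesis did not share this shift. The ribosome of mitochondria was split, with 37 of 72 higher and a median of 0.01. Initiation factors, which load messenger RNA onto the ribosome, were split as well, with 26 of 59 higher and a median of -0.01. Elongation and release factors had a median of -0.01 over 15 genes. Among the aminoacyl-tRNA synthetases, the enzymes that charge transfer RNA, 12 of 38 lay higher, with 1 gene higher and 3 lower at an unadjusted p under 0.05. One of the 3 was Nars1, the asparagine enzyme, at 271 to 320 CPM in control (median 283) and 246 to 295 CPM in ethanol rats (median 255), with 5 of 6 ethanol rats below every control.

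Chaperones lay lower by a small amount. The cytosolic chaperonin is a ring of 8 different subunits that folds actin and tubulin. All 8 subunit genes lay lower, with a median of -0.09, a value close to the lower quartile of all genes, and 2 stood at an unadjusted p under 0.05. Cct8 (chromosome 11, 27130172 to 27141881, Rnor_6.0) had 216 to 241 CPM in control (median 219) and 196 to 211 CPM in ethanol rats (median 202), without overlap. Its log2 difference was -0.14 ± 0.04 (SE; edgeR, adjusted p = 0.508; DESeq2, adjusted p = 0.0267). Tcp1 lay at 121 to 124 CPM in control and 105 to 124 CPM in ethanol rats, where all but rat 12 lay below the control range. Without withdrawal rats 13 and 17 in the fit, 6 of the 8 stood under an unadjusted p of 0.05. That fit raised the count over all genes too, to 1009 higher and 948 lower, against 547 and 483 with all libraries.

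Among heat shock proteins of the Hsp70, Hsp90 and small classes, 3 of 25 lay higher and 4 stood lower at an unadjusted p under 0.05, with a median of -0.09. Hspa9, the Hsp70 of mitochondria, had 216 to 222 CPM in control (median 219) and 167 to 218 CPM in ethanol rats (median 192). Its log2 difference was -0.18 ± 0.06, and the spread was wider in the ethanol group, where rat 7 was lowest and rat 12 lay inside the control range. Hspa2 lay at 24.2 to 33.5 CPM in control and 17.7 to 29.2 CPM in ethanol rats. Hspa1a, the stress-induced Hsp70, went the other way at 1.42 ± 0.75 (adjusted p = 0.884), and its highest value of 4.84 CPM came from ethanol rat 11. Without that rat its log2 difference was -0.025. Hspa1a has a near-identical neighbour, Hspa1b, and how their reads were divided is not given in the sources used here.

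DnaJ co-chaperones were split, with 17 of 41 higher and 2 lower at an unadjusted p under 0.05, among them Dnaja1 at 302 to 340 CPM in control and 255 to 320 CPM in ethanol rats. Genes of the unfolded protein response, which senses misfolded protein in the endoplasmic reticulum, had a median of -0.05, with 6 of 32 higher. Protein breakdown showed no shift: proteasome subunits had a median of -0.02, Usp deubiquitinases 0.01, F-box proteins 0.02, autophagy genes 0.02 and vacuolar ATPase subunits -0.04. Psmg1 and Psmg2, partners in 1 chaperone dimer that assembles the proteasome core, lay on opposite sides. Psmg2 had 13.3 to 15.3 CPM in control and 11.1 to 12.9 CPM in ethanol rats with no overlap, and Psmg1 had 27.4 to 32.1 CPM in control and 31.6 to 34.5 CPM in ethanol rats. Ube2m, which attaches the ubiquitin-like protein Nedd8, lay at 137 to 172 CPM in control (median 142) and 155 to 190 CPM in ethanol rats (median 181). Cops6, a subunit of the complex that removes Nedd8, lay at 119 to 146 CPM in control (median 135) and 144 to 184 CPM in ethanol rats (median 160). Their log2 differences were 0.28 ± 0.07 and 0.27 ± 0.07, both with an adjusted p of 0.281 by edgeR.

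RNA machinery was centred on 0. Medians lay between -0.03 and 0.01 for SR splicing factors, snRNP proteins, hnRNP proteins, RNA polymerase subunits, Mediator subunits and histone genes. Nucleoporins, which line the nuclear pore, leaned lower, with 5 of 23 higher, a median of -0.05 and 4 lower at an unadjusted p under 0.05. DEAD and DEAH box helicases had a median of -0.03 over 54 genes.

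Genes of energy supply showed little difference. Complex I subunits had 25 of 40 higher and a median of 0.02, complex IV subunits 12 of 17 and 0.05, ATP synthase subunits 10 of 19 and 0.00, and Slc25 mitochondrial carriers 25 of 48 and 0.00. Slc25a23, a carrier that exchanges ATP-magnesium for phosphate under control of calcium, stood out among the carriers. It had 197 to 225 CPM in control (median 211) and 243 to 310 CPM in ethanol rats (median 256), with rat 7 highest. The groups did not overlap, and the log2 difference was 0.33 ± 0.07 (SE; edgeR, adjusted p = 0.218; DESeq2, adjusted p = 0.00180). Ndufc1, a complex I subunit, lay at 68.2 to 77.9 CPM in control and 77.1 to 84.3 CPM in ethanol rats, where only rat 12 fell inside the control range.

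Glycolysis, which splits glucose to pyruvate, leaned lower: 3 of 25 genes lay higher, the median was -0.08 and 0 stood at an unadjusted p under 0.05. Pgam1 had 679 to 721 CPM in control and 607 to 682 CPM in ethanol rats, and Pkm 807 to 954 CPM in control and 787 to 935 CPM in ethanol rats. The groups overlapped in both genes, and ethanol rat 9 was lowest in each. Aldoc, the aldolase of astrocytes, lay on the other side, at 1272 to 1635 CPM in control and 1508 to 1699 CPM in ethanol rats.

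In the tricarboxylic acid cycle 9 of 31 genes lay higher. The isocitrate dehydrogenases of the cytosol and of mitochondria lay on opposite sides. Idh1, the cytosolic enzyme that makes NADPH, had 81.0 to 112 CPM in control (median 94.4) and 76.3 to 81.0 CPM in ethanol rats (median 77.1). The ethanol rats sat close together, 5 of 6 below every control, and the log2 difference was -0.28 ± 0.06 (SE; edgeR, adjusted p = 0.281; DESeq2, adjusted p = 0.0235). Idh2, the mitochondrial enzyme, lay at 56.4 to 67.6 CPM in control and 57.8 to 79.9 CPM in ethanol rats, with 4 of 6 ethanol rats above every control. Pdhb, a subunit of pyruvate dehydrogenase, had 170 to 178 CPM in control and 159 to 165 CPM in ethanol rats with no overlap, a log2 difference of -0.10 ± 0.04.

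Lipid synthesis leaned lower, with single genes on the other side. All 24 tested genes of cholesterol synthesis lay lower, with a median of -0.15 and 4 at an unadjusted p under 0.05. Hsd17b7, an enzyme of the late steps, had 22.0 to 27.9 CPM in control and 18.4 to 24.8 CPM in ethanol rats, and Mvd, an enzyme of the mevalonate steps, 21.9 to 31.4 CPM and 17.3 to 26.4 CPM. The family mean was low in ethanol rats 10, 11 and 12 (-0.34, -0.38 and -0.21) and close to control in rats 7, 8 and 9, and the median was -0.04 once the index entered as a term. Fatty acid synthesis and desaturation had 8 of 23 higher and a median of -0.08. Elovl6, an elongase, lay at 2.87 to 4.10 CPM in control and 1.83 to 3.43 CPM in ethanol rats, 5 of 6 below every control. Srebf1, the transcription factor that drives this family, lay at 91.7 to 137 CPM in control and 110 to 182 CPM in ethanol rats, 3 of 6 above every control.

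Fatty acid oxidation and ketone body genes had a median of 0.02 over 31 genes. Sphingolipid enzymes had 6 of 22 higher and a median of -0.03, with a pair at opposite ends. Degs2, which makes phytoceramide, had 3.36 to 5.28 CPM in control (median 4.38) and 6.12 to 8.09 CPM in ethanol rats (median 7.23), without overlap and with a log2 difference of 0.69 ± 0.19 (adjusted p = 0.461). Sptlc2, a subunit of the first enzyme of sphingolipid synthesis, had 92.7 to 103 CPM in control and 84.1 to 96.1 CPM in ethanol rats, 5 of 6 below every control.

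The enzymes that handle ethanol showed no common shift. Of 19 tested genes of ethanol, acetaldehyde and acetate metabolism 10 lay higher, the median was 0.00 and 1 stood at an unadjusted p under 0.05. Aldh2, the main acetaldehyde enzyme of mitochondria, had 73.1 to 104 CPM in control (median 91.5) and 76.8 to 129 CPM in ethanol rats (median 92.1). Cat, the catalase of peroxisomes, lay at 99.6 to 146 CPM in control (median 139) and 109 to 134 CPM in ethanol rats (median 121). Both genes overlapped between the groups, at 0.14 ± 0.15 and -0.14 ± 0.09 in log2. Aldh9a1, an aldehyde dehydrogenase that also acts on aminobutyraldehyde, was the 1 gene, at 37.8 to 45.6 CPM in control and 32.4 to 40.8 CPM in ethanol rats.

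Stress families were split. NRF2 targets and antioxidant enzymes had 16 of 45 higher and a median of -0.03. Gstm1, a glutathione transferase, had 69.4 to 103 CPM in control (median 75.8) and 91.4 to 116 CPM in ethanol rats (median 99.2), and control rat 2 was the control inside the ethanol range. Txnrd1, the cytosolic thioredoxin reductase, lay lower in 5 of 6 ethanol rats than in every control, at 81.3 to 88.3 CPM in control and 74.2 to 87.1 CPM in ethanol rats. The 3 tested metallothioneins, small proteins that bind zinc and copper, all lay higher. Mt2A had 4.78 to 9.94 CPM in control (median 6.82) and 7.86 to 21.0 CPM in ethanol rats (median 13.0), 4 of 6 above every control, and a log2 difference of 0.93 ± 0.27 (SE; edgeR, adjusted p = 0.553).

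Hypoxia-responsive genes had 11 of 28 higher and a median of -0.06. In this family 2 genes lay higher at an unadjusted p under 0.05, Edn1 and Egln1. Edn1, the vasoconstrictor peptide endothelin, had 2.20 to 3.52 CPM in control (median 3.05) and 4.84 to 10.4 CPM in ethanol rats (median 6.41), with rat 7 highest. The groups did not overlap, and the log2 difference was 1.24 ± 0.22 (SE; edgeR, adjusted p = 0.161). Egln1, an oxygen-sensing hydroxylase, lay at 46.1 to 55.3 CPM in control and 53.4 to 67.3 CPM in ethanol rats. Glucocorticoid-induced genes had 19 of 24 higher with a median of 0.06, and without control rat 6 the median was 0.00.

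Clock genes had a median of 0.03 over 23. Npas2, an activator of the clock, had 15.7 to 19.4 CPM in control (median 17.7) and 20.6 to 35.3 CPM in ethanol rats (median 25.6), without overlap and with rat 7 highest. Per3, a repressor, lay on the other side, at 47.9 to 68.8 CPM in control (median 57.1) and 33.6 to 50.1 CPM in ethanol rats (median 43.1). The log2 differences were 0.58 ± 0.23 and -0.43 ± 0.12, with adjusted p-values of 0.834 and 0.506 by edgeR. Among 31 p53 targets and apoptosis genes, 3 lay higher at an unadjusted p under 0.05 and 0 lower (9.68%, against 5.84% of all genes). Hrk, a neuronal activator of cell death of the BH3-only class, had 9.05 to 13.6 CPM in control (median 10.3) and 11.9 to 19.7 CPM in ethanol rats (median 16.1), a log2 difference of 0.58 ± 0.14 (adjusted p = 0.281). Bbc3, another gene of that class, lay at 2.46 to 3.74 CPM and 3.18 to 4.76 CPM.

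Immediate early genes, transcribed within minutes of strong neuronal activity, lay higher in the median by 0.40, with 34 of 41 higher and 16 at an unadjusted p under 0.05. This rested on ethanol rat 11, without which the median was 0.09. Fosb had 0.739 to 2.93 CPM in control (median 0.890) and 0.335 to 76.8 CPM in ethanol rats (median 1.32), and its log2 difference of 3.41 became -0.22 without rat 11. Nr4a1, an orphan nuclear receptor, lay at 5.25 to 15.3 CPM in control and 6.23 to 68.9 CPM in ethanol rats. In both genes rat 11 alone lay above every control. Jund, the Jun protein that is made steadily, did not depend on that rat. It had 50.5 to 73.6 CPM in control (median 53.5) and 58.9 to 106 CPM in ethanol rats (median 76.0), and the log2 difference was 0.47 ± 0.12 (SE; edgeR, adjusted p = 0.346) and ran from 0.37 to 0.56 as each rat was left out. The highest ethanol rat was rat 7 there.

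The promoters of these genes are shown because several hold the letters of the cyclic AMP response element, which the activity-dependent factor CREB binds. The letters searched were TGACGTCA, which read the same on both strands, over 250 bases before and 50 after the start site in the RefSeq promoter table. They were found in 5 of 30 matched immediate early genes (16.7%), in 2.90% of 12905 promoters of tested genes and in 1.83% of all 33469 in the table. They were not the only letters found more often in this family. The CArG box, a run of A or T between CC and GG, was in 4 of 30 (13.3%), against 1.22% of tested genes. The TATA box, TATAAA, was in 7 of 30 (23.3%), against 7.6%. The GC box, GGGCGG, was in 56.7%, against 57.8%. The 60-base windows below run 5′ to 3′ on the strand of the gene in assembly GRCr8, and capitals mark the match to TGACGTCA. A match is no more than a description of the letters.
Jund (chr16:18769959-18770018, minus strand, match 221 to 214 bases before the start): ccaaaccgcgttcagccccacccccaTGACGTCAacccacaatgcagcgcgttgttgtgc
Btg2 (chr13:48087858-48087917, minus strand, match 201 to 194 bases before): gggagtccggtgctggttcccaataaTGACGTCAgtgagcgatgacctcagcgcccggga
Ier2 (chr19:40399281-40399340, plus strand, match 66 to 59 bases before): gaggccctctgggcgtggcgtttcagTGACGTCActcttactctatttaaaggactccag
Dusp1 (chr10:17184703-17184762, plus strand, match 124 to 117 bases before): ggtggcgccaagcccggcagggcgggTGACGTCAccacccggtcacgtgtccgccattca

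The 4 shown are the holders of TGACGTCA at an unadjusted p under 0.05. The fifth match to those letters was in Maff, a small Maf factor. Maff had 1.24 to 3.71 CPM in control (median 1.52) and 1.22 to 3.83 CPM in ethanol rats (median 2.33). Its groups overlapped, and the log2 difference was 0.34 ± 0.32 (SE; edgeR, adjusted p = 0.999). Btg2, a brake on cell division, had 8.29 to 10.7 CPM in control and 9.47 to 106 CPM in ethanol rats, and Ier2 had 4.95 to 7.62 CPM in control and 5.56 to 39.5 CPM in ethanol rats. Rat 11 held the highest value of both. Dusp1, which removes phosphate from MAP kinases, lay at 12.0 to 36.9 CPM in control (median 18.2) and 15.0 to 119 CPM in ethanol rats (median 28.7). The dual-specificity phosphatases it belongs to had 18 of 20 higher, a median of 0.15, 3 higher and 1 lower at an unadjusted p under 0.05, and a median of 0.09 to 0.18 as each rat was left out. Dusp8, which acts on the stress kinases, had 30.2 to 40.1 CPM in control (median 35.6) and 35.6 to 46.7 CPM in ethanol rats (median 43.4). Dusp18 lay on the other side, at 34.6 to 41.3 CPM in control (median 36.6) and 29.3 to 34.0 CPM in ethanol rats (median 32.2), without overlap and with a log2 difference of -0.22 ± 0.07 (adjusted p = 0.622).

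Synaptic families lay on both sides of 0. GABA-A receptor subunits had 12 of 17 higher and a median of 0.10, which was 0.05 without rats 5 and 8 and -0.02 with the index term. Ionotropic glutamate receptor subunits had 15 of 19 higher and a median of 0.07, which was 0.03 without ethanol rat 9, and postsynaptic scaffolds 31 of 39 and 0.11. Gabrd, the subunit of extrasynaptic GABA-A receptors, had 0.394 to 3.56 CPM in control (median 0.647) and 0.555 to 26.7 CPM in ethanol rats (median 1.32). Shank3, a scaffold of excitatory synapses, had 58.2 to 72.8 CPM in control (median 61.0) and 66.2 to 242 CPM in ethanol rats (median 76.8), and Camk2a, the alpha chain of the calmodulin kinase of synapses, 16.9 to 42.9 CPM and 18.5 to 101 CPM. Ethanol rat 7, the one high in hypothalamic and thalamic genes, was highest in all 3, and without it their log2 differences were 0.48, 0.22 and 0.37.

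Metabotropic glutamate receptors had 7 of 8 higher and a median of 0.19, which was 0.02 without ethanol rat 7. Grm6 was the member that did not rest on that rat, at 0.708 to 2.38 CPM in control (median 1.58) and 1.66 to 3.69 CPM in ethanol rats (median 2.65), 5 of 6 above every control. GABA neuron genes had 20 of 22 higher and a median of 0.15 with 0 at an unadjusted p under 0.05, and the index term took the median to -0.07. Dopamine neuron genes had 9 of 36 higher and a median of -0.06, which was 0.09 without ethanol rat 8. Pts, an enzyme for the cofactor of Th, was the 1 member at an unadjusted p under 0.05, at 17.3 to 19.9 CPM in control and 14.6 to 18.2 CPM in ethanol rats. Neuropeptide genes and receptors had 40 of 51 higher and a median of 0.10. Vipr2, a receptor of vasoactive intestinal peptide, lay at 4.44 to 7.41 CPM in control and 6.06 to 18.3 CPM in ethanol rats, and Pmch, the hypothalamic melanin-concentrating hormone, at 1.04 to 2.33 CPM and 1.36 to 292 CPM, both highest in rat 7. Serotonin receptors had 4 of 11 higher and a median of -0.05, and glycine receptors and transporters 3 of 8 and -0.04. Vesicle fusion genes were centred on 0, with 29 of 66 higher and a median of -0.02, and so were synaptotagmins at 0.04.

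Ion channels and signalling families were mostly flat. Voltage-gated potassium channels had a median of 0.03 over 41 and sodium channels 0.02 over 12. Voltage-gated calcium channels had 22 of 24 higher and a median of 0.15, but 0 of 24 stood at an unadjusted p under 0.05 and the index term took the median to 0.04. The FGF family had 4 higher and 0 lower of 26 at an unadjusted p under 0.05 (15.4%, against 5.84% of all genes). Fgfr3, a receptor of astrocytes (chromosome 14, 82272322 to 82287739, Rnor_6.0), had 196 to 214 CPM in control (median 203) and 228 to 282 CPM in ethanol rats (median 252). The groups did not overlap, and the log2 difference was 0.31 ± 0.09 (SE; edgeR, adjusted p = 0.622) and ran from 0.28 to 0.34 as each rat was left out. Spry1, an inhibitor of FGF signals, lay at 1.98 to 3.56 CPM in control and 3.05 to 4.70 CPM in ethanol rats, 4 of 6 above every control.

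Wnt ligands and receptors had 5 higher and 1 lower of 36 at an unadjusted p under 0.05 (16.7%, against 5.84% of all genes). Fzd9, a Wnt receptor, lay at 10.3 to 14.1 CPM in control (median 11.6) and 12.9 to 20.5 CPM in ethanol rats (median 15.8). The MAP kinase cascade had 3 higher and 0 lower of 40 at an unadjusted p under 0.05. That is 7.5%, close to the 5.84% of all genes. Its member Map3k21 lay at 1.13 to 1.63 CPM in control and 1.61 to 2.65 CPM in ethanol rats, 5 of 6 above every control. Gng7, a G protein gamma subunit, had 22.6 to 34.2 CPM in control and 32.4 to 42.7 CPM in ethanol rats. Pde9a, which breaks down cyclic GMP, had 13.1 to 16.5 CPM and 14.4 to 22.6 CPM, 5 of 6 above every control. The adenosine family held 2 of 9 at an unadjusted p under 0.05 (22.2%, against 5.84% of all genes), Adora2b and Entpd2. Adora2b, a receptor, lay at 5.30 to 6.77 CPM in control and 6.19 to 9.84 CPM in ethanol rats, and Entpd2, which cuts extracellular ATP, at 26.5 to 29.9 CPM and 27.1 to 47.3 CPM with rat 10 highest.

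The largest family of transcription factors was flat. The 363 zinc finger genes of the Zfp and Zbtb families had 166 higher, a median of -0.01 and 8 higher and 8 lower at an unadjusted p under 0.05, close to the background on both sides. Nuclear receptors had 21 of 37 higher and a median of 0.02. At an unadjusted p under 0.05 stood 5 higher and 0 lower of them (13.5%, against 5.84% of all genes). Their member Nr2f6 lay at 19.7 to 26.9 CPM in control and 25 to 33 CPM in ethanol rats. Sox and Fox factors had 33 of 49 higher and a median of 0.10. Sox9, a factor of astrocytes, had 16.6 to 25.7 CPM in control (median 21.7) and 23.7 to 35.9 CPM in ethanol rats (median 30), and Foxo4 had 51.4 to 62.3 CPM (median 56.5) and 61.8 to 80.2 CPM (median 68.5). Their log2 differences were 0.44 ± 0.15 and 0.31 ± 0.11.

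Enzymes that write and read chromatin marks had medians of 0.05 (deacetylases), 0.00 (acetyltransferases) and -0.01 (methylation). Hdac7, a class II deacetylase, lay at 28.3 to 38.2 CPM in control and 36.2 to 44.0 CPM in ethanol rats. Mbd3, a subunit of the NuRD complex, lay at 56.7 to 73.0 CPM in control (median 63.4) and 68.4 to 87.1 CPM in ethanol rats (median 77.3), with 4 of 6 above every control. Kdm4d, a histone demethylase, was lower at 0.223 to 0.435 CPM in ethanol rats against 0.407 to 0.661 CPM in control, a low level.

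Tubulins lay lower, and motor proteins lay on both sides. Of 19 tubulin genes 1 lay higher and the median was -0.10, with 0 at an unadjusted p under 0.05. Tubb5, an abundant member, had 489 to 562 CPM in control (median 540) and 461 to 519 CPM in ethanol rats (median 507), and the groups overlapped. Kinesins and dyneins, the motors that walk on tubulin, had 23 of 62 higher and a median of -0.04. At an unadjusted p under 0.05 stood 4 higher and 1 lower (8.06%, against 5.84% of all genes). In 4 of the 62 the groups did not overlap, 2 on each side, against 0.93% of all genes. Kif5a, the neuronal kinesin that carries cargo down the axon (chromosome 7, 70515832 to 70552897, Rnor_6.0), had 765 to 866 CPM in control (median 823) and 1059.7 to 1177 CPM in ethanol rats (median 1115). The groups stood far apart for a gene of this level, with a log2 difference of 0.45 ± 0.12 (SE; edgeR, adjusted p = 0.419) that ran from 0.44 to 0.47 as each rat was left out. Fitted on the 12 libraries alone its adjusted p was 0.00184, and without withdrawal rat 13 it was 0.0185. Kif5c, its close relative, lay at 656 to 786 CPM in control and 739 to 871 CPM in ethanol rats, 5 of 6 above every control. Dync1i2, an intermediate chain of dynein, which walks the other way, had 173 to 187 CPM in control (median 182) and 155 to 171 CPM in ethanol rats (median 163), all below every control.

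Matrix families leaned lower, and the shift of several rested on control rat 3. Collagens had 14 of 40 higher and a median of -0.11, which was 0.04 without control rat 3, and proteoglycans and matrix glycoproteins 10 of 34 and -0.19, which was 0.08 without it. Col3a1, a collagen of fibroblasts, had 8.76 to 105 CPM in control and 8.93 to 17.6 CPM in ethanol rats, and the highest value was from control rat 3. Col20a1 did not rest on that rat, at 7.39 to 9.66 CPM in control (median 8.77) and 5.65 to 7.26 CPM in ethanol rats (median 6.39), without overlap. Hmcn1, a very large basement membrane protein, had 7.81 to 10.7 CPM in control (median 9.11) and 5.31 to 7.77 CPM in ethanol rats (median 5.69), and all ethanol rats lay below every control. Its log2 difference was -0.60 ± 0.12 (SE; edgeR, adjusted p = 0.200; DESeq2, adjusted p = 0.00162). Adamts14, a protease that trims procollagen, lay at 0.998 to 2.75 CPM in control and 0.569 to 0.967 CPM in ethanol rats, also without overlap.

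Bcan, a proteoglycan of astrocytes and perineuronal nets, lay higher, at 294 to 362 CPM in control (median 333) and 387 to 541 CPM in ethanol rats (median 391). Timp4, an inhibitor of metalloproteinases, lay at 36.9 to 50.5 CPM in control (median 47.7) and 50.8 to 74.8 CPM in ethanol rats (median 55.1). Neither gene overlapped between the groups, and ethanol rat 10 was highest in both. Most transport families were flat: ABC transporters had a median of 0.00, amino acid transporters -0.01, zinc transporters 0.04 and cytochromes P450 0.00. Monocarboxylate and organic anion transporters leaned lower, with 12 of 36 higher and a median of -0.08, which was -0.03 without control rat 3. In that family 3 lay lower at an unadjusted p under 0.05 (8.33%, against 5.84% of all genes). Iron handling genes had 7 of 17 higher and a median of -0.02, with 1 higher and 2 lower at that p (17.6%). Cyp2d4, a brain cytochrome, had 26.6 to 29.3 CPM in control and 30.3 to 38.6 CPM in ethanol rats with no overlap. Capn6, a calpain that stabilises microtubules and lacks protease activity (chromosome X, 115049113 to 115073824, Rnor_6.0), had 3.89 to 5.83 CPM in control and 1.26 to 2.44 CPM in ethanol rats. It was 1 of 2 members of the calpain and S100 family at an unadjusted p under 0.05, in a family of 22 with a median of -0.02.

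Several immune families lay lower. Among these families the median was lowest for MHC class II genes, and the share at an unadjusted p under 0.05 was highest for genes induced by interferon (45.2%). Interferon signals through a complex of transcription factors that binds an element in the promoters of antiviral genes. In this wider list 1 of 42 lay higher, the median was -0.53 and 19 stood lower at an unadjusted p under 0.05. Without control rat 3, the rat high in meningeal genes, the median was -0.33 and 3 stood under that p. Every ethanol rat had a negative family mean, from -0.31 to -0.93, and control rats 1 and 4, at -0.34 and -0.38, lay inside that range.

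The element is shown for 5 of these genes, chosen after their values were seen. The letters searched were TTTCNNTTTC, where N is any base, on either strand, so that a match on the other strand reads GAAANNGAAA. They were found in 20 of 31 matched interferon-induced genes (64.5%), in 2.93% of the promoters of tested genes and in 3.92% of all promoters. In the MHC class I family 8 of 25 held them (32.0%). The windows are again from RefSeq in assembly GRCr8, on the strand of the gene, with the match in capitals.
Bst2 (chr16:18255058-18255117, minus strand, match 125 to 116 bases before the start): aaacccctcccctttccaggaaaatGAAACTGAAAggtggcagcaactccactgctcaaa
Oas1a (chr12:41330406-41330465, plus strand, match 35 to 26 bases before): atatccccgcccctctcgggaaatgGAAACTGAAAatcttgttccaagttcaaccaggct
Irf7 (chr1:205800058-205800117, minus strand, match 69 to 60 bases before): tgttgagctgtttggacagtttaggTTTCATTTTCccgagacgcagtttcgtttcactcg
Ifi44l (chr2:243328639-243328698, plus strand, match 59 to 50 bases before): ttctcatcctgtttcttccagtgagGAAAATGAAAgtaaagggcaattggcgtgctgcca
Parp14 (chr11:78408033-78408092, plus strand, match 76 to 67 bases before): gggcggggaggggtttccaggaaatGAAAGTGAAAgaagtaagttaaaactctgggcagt

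The 5 differed in size. Bst2, which tethers budding virus, had 4.89 to 15.2 CPM in control (median 6.56) and 4.20 to 5.12 CPM in ethanol rats (median 4.56). Oas1a, which senses double-stranded RNA, had 1.80 to 4.84 CPM in control (median 2.23) and 0.216 to 1.93 CPM in ethanol rats (median 0.912). In both, 5 of 6 ethanol rats lay below every control and control rat 3 was highest. Irf7, the transcription factor that amplifies the response, had 2.97 to 11.8 CPM in control (median 6.20) and 1.41 to 4.81 CPM in ethanol rats (median 2.57), a log2 difference of -1.24 ± 0.51 (SE; edgeR, adjusted p = 0.834). Ifi44l lay at 1.28 to 3.80 CPM and 0.770 to 1.62 CPM, and Parp14, an ADP-ribosyltransferase, at 5.96 to 8.46 CPM and 5.53 to 6.66 CPM. Without control rat 3 the log2 differences of Irf7 and Ifi44l were -0.99 and -0.74, the values nearest 0 as each rat was left out. Parp9, which works with a ubiquitin ligase of this response, lay at 10.9 to 20.6 CPM in control and 8.18 to 11.5 CPM in ethanol rats. Eif2ak2, the kinase that halts translation on double-stranded RNA, had 34.3 to 45.2 CPM in control and 29.8 to 35.7 CPM in ethanol rats.

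Complement genes had 4 of 20 higher and a median of -0.25, which was -0.06 without control rat 3. C3, the central component, had its highest control value in rat 2. It had 57.6 to 97.0 CPM in control (median 74.7) and 22.4 to 56.2 CPM in ethanol rats (median 33.4), without overlap. Its log2 difference was -1.12 ± 0.26 (SE; edgeR, adjusted p = 0.281; DESeq2, adjusted p = 0.0172). C4b lay at 1.66 to 8.58 CPM in control (median 3.55) and 0.455 to 2.45 CPM in ethanol rats (median 1.2). MHC class I and antigen processing genes had 4 of 28 higher and a median of -0.22, which was -0.15 without control rat 3, with Psmb8, an immunoproteasome subunit, at 1.54 to 4.03 CPM in control and 1.38 to 1.98 CPM in ethanol rats. MHC class II genes had 0 of 7 higher and a median of -0.81, which was -0.50 without control rat 3. The index term took it to -0.21. Red blood cell genes, a marker of blood in the tissue, lay lower too, with a median of -1.34, and their part in these differences was not tested.

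A few cell surface genes of leukocytes and macrophages, chosen after their values were seen and not as a list, lay lower, with the highest value of each in control rat 3. Cd4, a coreceptor that rat macrophages also carry, had 12.0 to 21.8 CPM in control (median 18.9) and 7.99 to 15.2 CPM in ethanol rats (median 11.9). Itgal, the integrin chain of LFA-1, had 2.68 to 4.38 CPM in control (median 3.46) and 1.80 to 2.83 CPM in ethanol rats (median 1.96), 5 of 6 below every control. Ptprc, the leukocyte phosphatase CD45, lay at 8.74 to 12.9 CPM in control and 5.93 to 11.2 CPM in ethanol rats, again 5 of 6 below. Their log2 differences were -0.63 ± 0.16, -0.71 ± 0.17 and -0.32 ± 0.14, with adjusted p-values of 0.322, 0.281 and 0.837 by edgeR. Fcrl2, a receptor of the Fc receptor family, lay at 3.38 to 13.7 CPM in control and 1.69 to 4.58 CPM in ethanol rats. Microglia genes as a list had 2 lower at an unadjusted p under 0.05, 4 of 28 higher and a median of -0.07, which was -0.20 without ethanol rat 10. Chemokines, cytokines and their receptors had 5 higher and 1 lower of 92 at that p, a share close to the 5.84% of all genes. Cxcl12, a chemokine of vessels and neurons, lay at 85.2 to 121 CPM in control (median 89.1) and 97.5 to 160 CPM in ethanol rats (median 132).

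Among cell type lists, astrocyte genes lay higher, with 26 of 30 higher, a median of 0.17, 9 at an unadjusted p under 0.05 and 3 without overlap. The family mean was 0.38, 0.27 and 0.18 in ethanol rats 10, 8 and 11. Ethanol rats 7, 9 and 12, at -0.02, 0.003 and 0.07, lay inside the control range of -0.07 to 0.09. Ttyh1, a membrane protein of astrocytes, had 752 to 905 CPM in control (median 858) and 899 to 1138 CPM in ethanol rats (median 1039.8), with only rat 9 inside the control range. Its log2 difference was 0.28 ± 0.06 (SE; edgeR, adjusted p = 0.281; DESeq2, adjusted p = 0.0166). Cbs, which makes cystathionine in astrocytes, lay at 44.6 to 61.2 CPM in control and 53.9 to 103 CPM in ethanol rats. Aldoc, given above, lay higher as well, while Aqp4 and Gfap varied more among rats than between groups. Aqp4, the water channel of astrocyte endfeet, had 1084 to 1934 CPM in control (median 1272) and 759.5 to 2199 CPM in ethanol rats (median 1111). Gfap, the astrocyte filament, had 487 to 2160.4 CPM in control (median 788) and 174 to 2022 CPM in ethanol rats (median 554). Both spread widely within each group and overlapped between the groups, with 3 of 6 ethanol rats below every control.

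Myelin and oligodendrocyte genes had a median of -0.06, with 11 of 31 higher. Oligodendrocyte precursor genes had 9 of 14 higher and a median of 0.07, but their 2 members at an unadjusted p under 0.05 lay lower. Gpr17, a receptor of cells about to form myelin, had 42.9 to 58.9 CPM in control (median 45.0) and 32.8 to 48.3 CPM in ethanol rats (median 34.4), with only rat 10 inside the control range. Matn4, a matrix protein of precursors, lay at 4.35 to 7.71 CPM in control (median 5.93) and 3.79 to 5.23 CPM in ethanol rats (median 4.14). Endothelial genes had 21 of 29 higher and a median of 0.08, with Eng, a coreceptor of TGF-beta, at 24.8 to 40.1 CPM in control and 33.9 to 45.1 CPM in ethanol rats.

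Pericyte and smooth muscle genes had a median of -0.26, and it was 0.06 without control rat 3. Tagln, an actin-binding protein of smooth muscle, had 12.0 to 274 CPM in control (median 17.9) and 14.5 to 25.7 CPM in ethanol rats (median 21.4), and Cnn1, calponin, 0.123 to 20.1 CPM (median 0.341) and 0.130 to 0.694 CPM (median 0.464). In both, the ethanol median was the higher one and the fitted difference was negative, with all of the control excess in rat 3. Meningeal fibroblast genes moved from -0.82 to 0.06 without that rat. Red blood cell genes had 5 of 5 lower, all 5 at an unadjusted p under 0.05 (100%), the highest share of any family. Hbb, beta globin, had 81.4 to 217 CPM in control (median 117) and 22.4 to 94.8 CPM in ethanol rats (median 49.9). General neuron genes were flat, with 14 of 29 higher and a median of 0.00.

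Genes outside every family, chosen after their values were seen, included several with narrow groups that did not overlap. Cdk9, the kinase that releases paused RNA polymerase II, had 63.2 to 71.3 CPM in control (median 65.4) and 72.8 to 89.4 CPM in ethanol rats (median 80.7), a log2 difference of 0.28 ± 0.05 (SE; edgeR, adjusted p = 0.161; DESeq2, adjusted p = 0.000626). Nwd1 lay at 58.3 to 76.4 CPM in control (median 67.4) and 87.8 to 109 CPM in ethanol rats (median 96.5). Dut, which removes dUTP before it enters DNA, had 33.1 to 36.9 CPM in control and 38.5 to 43.3 CPM in ethanol rats. Nenf, a secreted neurotrophic factor, had 26.5 to 32.1 CPM and 33.6 to 38.7 CPM.

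Vti1b, a SNARE of late endosomes, lay at 37.5 to 43.7 CPM in control and 45 to 53 CPM in ethanol rats, a log2 difference of 0.22 ± 0.05. Arl2bp, a partner of the tubulin-folding GTPase Arl2, lay at 199.8 to 212 CPM and 223 to 257 CPM. Spop, an adaptor of a ubiquitin ligase, lay at 139 to 155 CPM and 156 to 185 CPM. All 6 ethanol rats lay above every control in these genes. On the lower side, Vps35, a core subunit of the retromer that returns cargo from endosomes, had 226 to 255 CPM in control (median 243) and 202 to 230 CPM in ethanol rats (median 216), with only rat 11 inside the control range. Maged2 lay at 84.2 to 91.7 CPM in control and 73.2 to 82.7 CPM in ethanol rats. Smc2, a subunit of condensin, lay at 29.7 to 32.2 CPM in control and 21.9 to 28.4 CPM in ethanol rats, neither with overlap. Adjusted p-values of these 10 genes ran from 0.161 to 0.354 by edgeR, and all 10 passed by DESeq2. Passing by DESeq2 was among the rules by which genes were named, so it is no separate support for them.

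**Figure D5:**
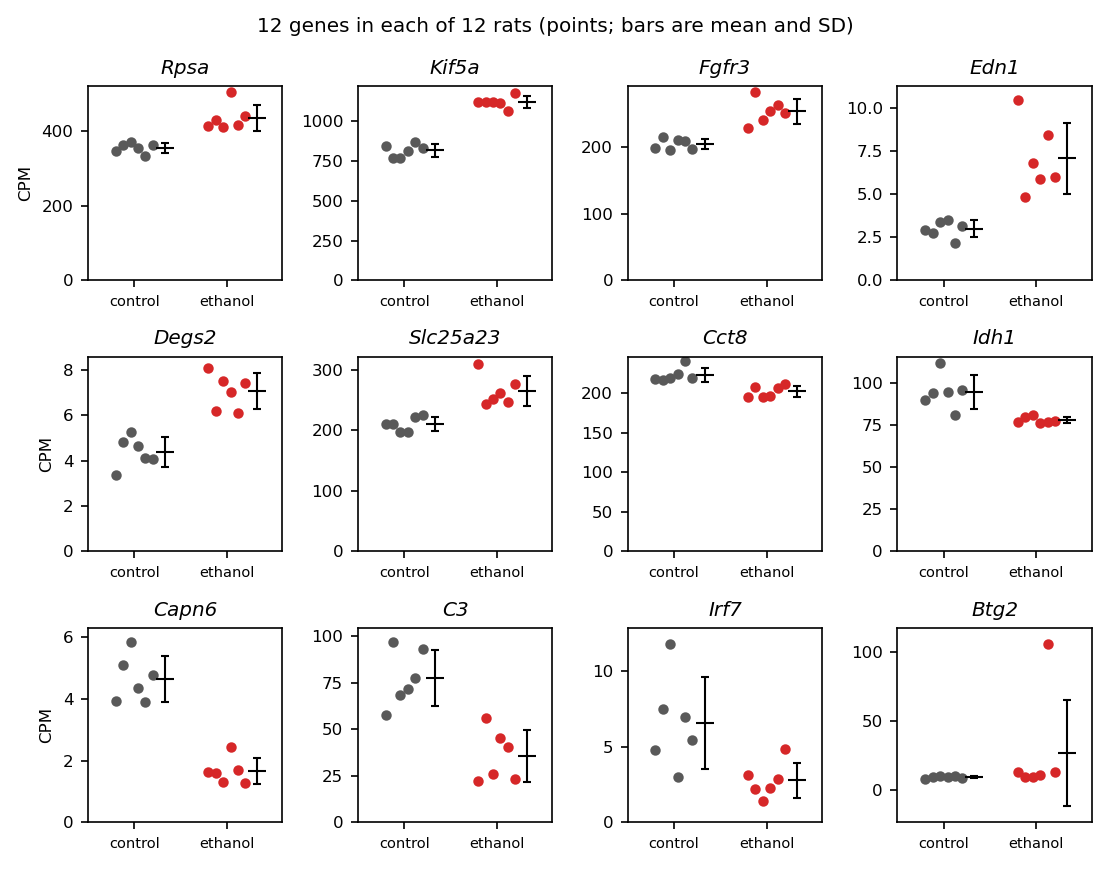
Level in CPM (vertical axis, linear; starting at 0 except for Btg2, whose SD bar reaches below it) of 12 genes in 6 control rats (grey) and 6 chronic ethanol rats (red), with mean and SD beside them. Rpsa, Kif5a, Fgfr3, Edn1, Degs2 and Slc25a23 lay higher and Cct8, Capn6 and C3 lower in every ethanol rat than in every control, while the Btg2 mean rests on rat 11, at 106 CPM.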

How the data were processed

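RNA of the VTA was sequenced as 1 library per rat in 18 rats. Reads were aligned with STAR 2.5.2a to Rnor_6.0 and counted with featureCounts 1.5.0, per the file headers and the submitters' processing notes, which also name R 3.3.3 and limma. The authors deposited whole-number counts per gene with no normalization. The files hold 38445 genes, of which 29322 were named by symbol through the RefSeq table and 9123 were kept by identifier. From the counts, edgeR 4.0.16 (R 4.3.3) gave TMM-scaled CPM and a two-sided quasi-likelihood test on all 18 libraries by group, after its default filter on low counts. P-values were adjusted by the Benjamini-Hochberg method over 17637 genes, with a threshold of 0.05. The SE of a log2 difference is its size divided by the root of the F statistic. DESeq2 1.42.0 and limma-voom (limma 3.58.1) were alternatives, as were other filters and scalings, the library index as a term, and leaving out rats. On simulated counts for this comparison with 17637 genes and 200 changed, edgeR called 141, of which 7 were false. It found 43.3%, 62.7% and 95.5% of genes changed by 0.5, 1 and 2 in log2. Genes were drawn independently, with no outlying dissections and no effect of the library index, so these shares need not hold for the real rats. Replicates were checked for duplicate libraries. Over pairs within the control or the ethanol group, chi-square divided by its degrees of freedom was at least 12.9, above counting noise. Among withdrawal rats it was at least 12.5, and it was 340 to 386 in pairs with withdrawal rat 13. Members, families and lists were chosen with earlier results of these data known, and families were described by counts and medians without a test. Genes were named by rule: the lowest p, the largest differences, the 2 lowest p in each direction of each family, and those called by DESeq2, plus a few fixed markers. The text describes some of these. Other members are named as examples or as holders of a promoter match and were chosen after their values were seen. Promoters came from RefSeq, assembly GRCr8, matched by symbol. A few items are not reported here.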

Additional observations from a re-analysis of the deposited data

Results flagged for a closer look

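In 492 groups of 6 rats tested, over the genes named above and the family means, 64 single values stood apart from the other 5, of which 39 were of genes and 25 of families. Chance flags about 1 in 20 groups. No explanation was tested for any of them.

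Control rat 3 stood apart with high values. It had 105 CPM of Col3a1, 15.2 CPM of Bst2, 4.84 CPM of Oas1a, 3.71 CPM of Maff and 4.03 CPM of Psmb8. It had 274 CPM of Tagln and 20.1 CPM of Cnn1. Its mean log2 CPM was the highest of the control rats for meningeal fibroblast genes (5.23), proteoglycans and matrix glycoproteins (5.55), metalloproteinases, ADAMTS and TIMPs (3.26), and complement (4.00). It was also highest for the insulin and IGF pathway (4.44), the TGF-beta and BMP pathway (3.87), p53 targets (4.06), tubulins (6.57), and aquaporins, connexins and claudins (3.48).

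Control rat 5 and ethanol rat 8 stood apart in markers of position. Slc17a7, a vesicular glutamate transporter, reached 509 CPM in the first of these rats and 409 CPM in the second, with at most 14.3 and 23.8 CPM in the other rats of their groups. Hox genes had a mean log2 CPM of 3.48 and 3.24 in these rats, and GABA neuron genes had the lowest means of their groups, 5.49 and 5.63. Control rat 5 was also high for Cct8 (241 CPM), Fosb (2.93 CPM), Nr4a1 (15.3 CPM), aminoacyl-tRNA synthetases (5.5), Mediator subunits (4.52), clock genes (5.53) and glutamate transport (6.61), and low for Tubb5 (489 CPM). Ethanol rat 8 was also low for dopamine neuron genes (3.89) and cyclases (4.10) and high for Slc25 carriers (4.36).

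Ethanol rat 7 was high for Pmch (292 CPM), Gabrd (26.7 CPM), Shank3 (242 CPM), Camk2a (101 CPM), Vipr2 (18.3 CPM) and Nr2f6 (33 CPM), and in mean log2 CPM for hypothalamic and thalamic genes (3.37) and protein kinase A and C subunits (6.98). Ethanol rat 11 was high for Fosb (76.8 CPM), Nr4a1 (68.9 CPM), Btg2 (106 CPM), Ier2 (39.5 CPM), Hspa1a (4.84 CPM), Txnrd1 (87.1 CPM) and the mean of immediate early genes (4.19). Ethanol rat 10 was high for Rpsa (505 CPM), Entpd2 (47.3 CPM), Timp4 (74.8 CPM), Col3a1 (17.6 CPM), Capn6 (2.44 CPM), Cbs (103 CPM), Gpr17 (48.3 CPM) and the mean of oligodendrocyte precursor genes (5.78).

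Single values of other rats also stood apart. Control rat 6 was high for Ube2m (172 CPM) and Jund (73.6 CPM), control rat 2 for Gstm1 (103 CPM) and control rat 4 for Map3k21 (1.63 CPM). Control rat 1 was low for Cat (99.6 CPM). Ethanol rat 9 was low for Pgam1 (607 CPM) and proteasome subunits (5.60), and ethanol rat 12 for Psmg2 (11.1 CPM).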

How the results depend on the processing

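No paired analysis was possible because the groups share no replicate numbers. The number of genes passing the adjusted threshold was 0 with edgeR on all libraries, 46 with DESeq2, 2 with limma-voom, 2 with the index as a term, 2 on the 12 libraries alone, 3 without withdrawal rats 13 and 17, and 1 at a threshold of 0.10. It ran from 0 to 4 as each rat was left out, with 4 without withdrawal rat 13. Genes higher at an unadjusted p under 0.05 numbered 547, but 1009 without rats 13 and 17 and 281 without rats 3, 5, 7 and 8, with 389 (without ethanol rat 7) to 961 (without withdrawal rat 13) as each rat was left out. Genes lower numbered 483, but 865 on the 12 libraries alone, 948 without rats 13 and 17 and 233 without rats 3, 5, 7 and 8, with 305 (without ethanol rat 7) to 945 (without withdrawal rat 13) as each was left out. Genes without overlap numbered 92 above and 72 below, 213 and 209 without rats 5 and 8, and 107 to 186 above and 83 to 148 below as each of the 12 rats was left out. Fewer rats make an overlap less likely.

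In log2 differences of named genes, 6 of 119 changed sign. Hspa1a was -0.86 with the index term and ran from -0.025 (without ethanol rat 11) to 1.79 as each rat was left out. Fosb ran from -0.22 (without ethanol rat 11) to 3.85. Th was 0.16 without rats 3, 5, 7 and 8 and 0.027 without rats 5 and 8, and ran from -0.27 to 0.16. Maff was -0.057 with the index term. Aqp4 was 0.070 without rats 3, 5, 7 and 8 and ran from -0.30 to 0.025. Slc17a7 was 1.25 with the index term and 0.11 without rats 5 and 8, and ran from -3.61 (without ethanol rat 8) to 3.44 (without control rat 5). Of 3442 alternative values of named genes, 3389 kept their direction and side of the threshold and 38 (29 genes) passed it only there. No gene passed in the main fit, so a value counted as kept whenever its sign held and the gene failed again. Many named genes were chosen for a low p, and some alternatives left out only a withdrawal rat. The large share kept is therefore no evidence of stable differences. Of 3622 alternative family medians, 23 in 17 families moved by over 1 SD. This is the SD of the family mean among rats, taken from the group with the larger one. That bound is wide, at 0.34 for collagens, whose median was -0.11. A median can change sign within it, as that of collagens did without control rat 3, so few moves do not show stable medians. The cause of these shifts was not tested.

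Between rats, the biological coefficient of variation fitted over all genes was 0.270. That value comes from the fit on all libraries, with the outlying withdrawal rat 13 included. On simulated counts, which held no outlying dissections, 43.3% of genes changed by 0.5 in log2 were found. Most family shifts are smaller than that, and the counts at an unadjusted p lean on the withdrawal rats through the shared spread.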
